A study of Mus musculus with 24 samples.

Results

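The mRNAs described here encode the nuclear-encoded subunits of respiratory complexes II to V. They were chosen by gene symbol alone: Sdha to Sdhd, Cyc1, and every symbol beginning with Uqcr, Cox4, Cox5, Cox6, Cox7, Cox8 or Atp5, provided that the entry named a single gene and held at least 1 read in all 24 libraries. This gave 40 genes of the 11438 genes tested, with 4 in complex II, 8 in complex III, 13 in complex IV and 15 in complex V. Cox8b, Cox8c, Cox7b2 and Cox4i2 matched by name but were at 0 in 23, 24, 23 and 6 libraries, so they were left out. The entries for Uqcrc2, Cox6a2, Atp5f1 and Atp5j each shared their reads with a neighbouring symbol and were also left out. Among the 40, Atp5s and Atp5sl (Dmac2l and Dmac2 in RefSeq) and Cox7a2l are named like subunits but are not known as stable ones. They stayed in all counts. Subunits encoded by mitochondrial DNA were not analysed here.

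Mouse pancreatic organoids of 2 types were compared. N organoids were grown from normal pancreatic ducts of wild-type C57Bl/6J mice, and KP organoids came from ductal tumours of mice in which Pdx1-Cre activates engineered alleles in the pancreas, among them p53 R172H. Both received vehicle (DMSO) or 10 nM of CR-31, also labelled CR1-31-b, for 1 h. CR-31 is an inhibitor of eIF4A, the RNA helicase that unwinds the 5′ ends of mRNAs during translation initiation, and the series was made to ask how translation differs between the organoids and which mRNAs depend on eIF4A. From each of 12 lysates, 3 per group, total mRNA and the mRNA bound by at least 3 ribosomes (polysome-associated mRNA) were sequenced, which gives 8 groups of 3 libraries. Nothing in the labels says whether the replicates came from separate animals or organoid lines, so the p-values measure the spread between these lysates, which may be technical.

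The respiratory chain passes electrons from NADH and succinate to oxygen. Complex II (succinate dehydrogenase) feeds in electrons from succinate and is also an enzyme of the TCA cycle, complex III hands them to cytochrome c, complex IV (cytochrome c oxidase) reduces oxygen, and complex V (ATP synthase) makes ATP from the proton gradient built by the others. Most of the small nuclear-encoded subunits are short proteins translated in the cytosol and imported into the mitochondrion.

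The libraries held between 47308461 and 267463046 counted reads in the polysome fraction and between 72077342 and 167384903 in the total fraction, and the lowest count of any of the 40 genes in any library was 70. Levels below are CPM, the counts of a gene scaled by library size within a fraction, so each value is relative to the other mRNAs of that fraction. All 9 markers of duct and epithelium were detected in every library. Their summed level was 9940 to 10500 CPM in polysomes of N vehicle and 5480 to 8900 CPM in those of KP vehicle. The 8 acinar markers summed to at most 6.5 CPM, with Cpa1 and Prss1 at 0 in all 24 libraries. Cela1, at 2.96 to 5.08 CPM, and Bhlha15, at 0.139 to 1.86 CPM, were detected in all 24. The 7 endocrine markers summed to at most 0.16 CPM, the 3 endothelial to at most 0.343 CPM and the 7 fibroblast and stellate markers to at most 0.866 CPM in N and 0.301 CPM in KP. The 5 immune markers reached 29.6 CPM, with a range of 4.57 to 17.8 CPM in N vehicle polysomes and 2.78 to 29.6 CPM in KP vehicle polysomes. The part of these marker levels in the results was not tested. Each library name opens with a code, 2 codes per organoid type, which is read here as a sequencing run or lane although the labels do not say so. No code was shared by N and KP, so organoid type and code cannot be told apart. In bulk RNA, fewer cells of a type and less RNA per cell cannot be told apart either.

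In vehicle-treated organoids, most subunit mRNAs were more abundant on polysomes in KP than in N. Of the 40 genes, 29 were called higher (edgeR quasi-likelihood test, Benjamini-Hochberg adjusted p under 0.25, the threshold the study used) and 1 was called lower, where 20.9% of all genes tested were called higher and 22.2% lower. The median log2 fold change of the 40 genes was 0.75, or 1.68-fold, against -0.03 for all genes. The calls covered every complex: 3 of 4 genes of complex II, 4 of 8 of complex III, 10 of 13 of complex IV and 12 of 15 of complex V rose. The 3 KP and the 3 N libraries did not overlap for 26 of the 40 genes, with KP above in 25 of them, against 33.8% of all genes in either direction. At an adjusted p under 0.05, 16 genes were called higher and 0 lower, against 8.02% and 7.22% of all genes. When replicate numbers, taken separately for N and KP, entered the fit as a block (the replicate block), 35 genes were called higher and 2 lower, where 34% and 34.8% of all genes were, and 30 were higher at an adjusted p under 0.05, against 23.7%. N and KP are not paired by these numbers, so the block takes replicate spread out of the error of this comparison, and the calls it adds are not used below. Leaving out 1 lysate, or both lysates of a replicate number, left between 21 and 34 genes called higher, while 13% to 26.3% of all genes were. The call of Sdha as lower was lost without KP vehicle replicate 1, and also without both lysates of KP replicate 1 or 2. The medians of single-library differences were 1.06 for the libraries numbered 1, 0.84 for those numbered 2 and 0.25 for those numbered 3, so the libraries numbered 3 showed the smallest difference.

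**Figure D1:**
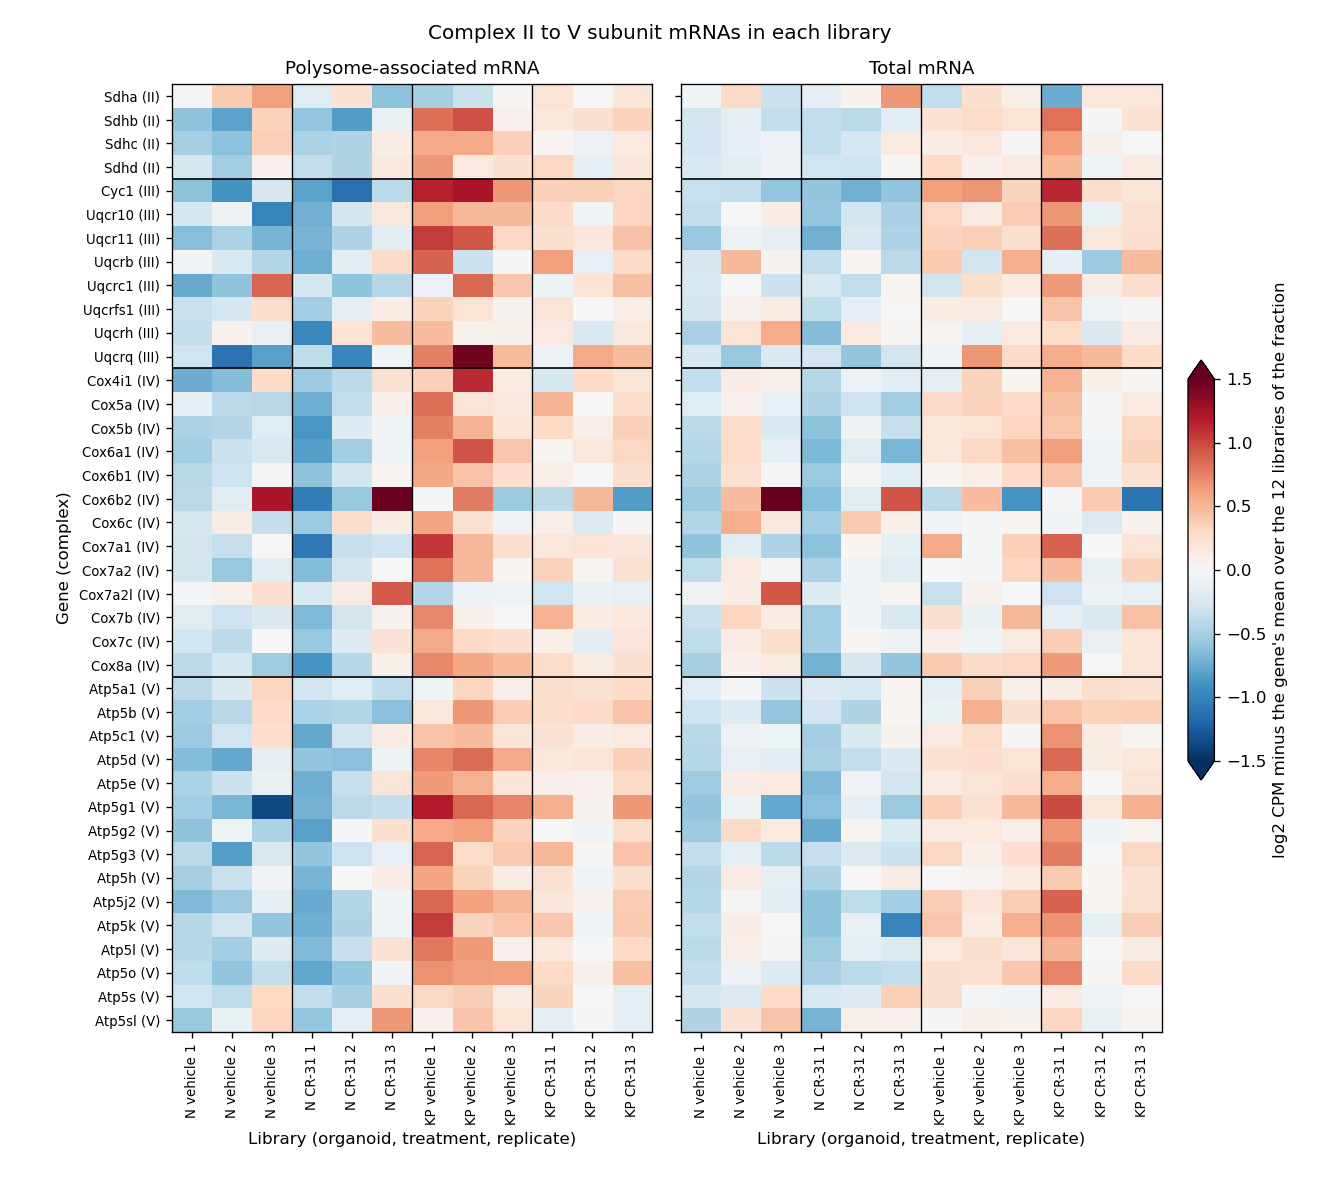
Level of each of the 40 subunit mRNAs in each library, as log2 CPM minus the gene's own mean over the 12 libraries of that fraction, with genes grouped by complex in rows and libraries grouped by organoid, treatment and replicate in columns. In polysomes the KP vehicle columns are mostly red and those of N replicates 1 and 2 mostly blue, while N replicate 3 is mixed. In total mRNA KP CR-31 replicate 1 is the reddest column.

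Complex II split by subunit. Sdhb, the iron-sulphur subunit that carries electrons away from the flavin, was at 68.4, 59.5 and 132 CPM in the N vehicle polysome libraries and at 184, 203 and 109 CPM in the KP vehicle libraries. KP replicates 1 and 2 were above all N libraries, whereas KP replicate 3 was below N replicate 3, so the groups overlapped. The log2 fold change was 0.93 ± 0.33 (SE, adjusted p = 0.0733). Sdhc, a membrane anchor, was at 166, 154 and 301 CPM in N and at 351, 348 and 302 CPM in KP, a difference of 0.69 ± 0.27 on the log2 scale (adjusted p = 0.101). The groups did not overlap, but N replicate 3 lay just below the lowest KP library. The other anchor, Sdhd, rose by 0.58 ± 0.24 (adjusted p = 0.121). Sdha, the flavoprotein that oxidizes succinate, moved the other way. It was at 108, 143 and 167 CPM in N and at 77.4, 86.2 and 110 CPM in KP, with a log2 fold change of -0.61 ± 0.25 (adjusted p = 0.111), and KP replicate 3 was just above N replicate 1.

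In complex III the largest differences were those of Uqcrq, Cyc1 and Uqcr11. Cyc1 encodes cytochrome c1, the subunit that reduces cytochrome c. It was at 152, 125 and 196 CPM in N vehicle polysomes and at 518, 542 and 365 CPM in KP, and the groups lay far apart, with a log2 fold change of 1.59 ± 0.25 (adjusted p = 0.00398). Uqcr11, a small accessory subunit, was at 123, 137 and 118 CPM in N and at 396, 364 and 237 CPM in KP, again without overlap, a difference of 1.39 ± 0.23 (adjusted p = 0.00514). Uqcrq, another small subunit, changed by 1.66 ± 0.34 (adjusted p = 0.0105), and Uqcr10 by 0.92 ± 0.28 (adjusted p = 0.042). The other 4 genes of the complex were not called: Uqcrfs1, the Rieske iron-sulphur protein, at 0.29 ± 0.22, the core protein gene Uqcrc1 at 0.41 ± 0.39, and Uqcrb and Uqcrh at 0.52 ± 0.34 and 0.34 ± 0.31. For Uqcrc1 the N vehicle libraries themselves spread from 108 to 334 CPM.

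Of the 13 nuclear-encoded genes of complex IV 10 rose, and the values of all 13 ran from -0.28 to 1.03. Cox6a1 was at 243, 278 and 293 CPM in N vehicle polysomes and at 533, 667 and 465 CPM in KP, and each KP library was above each N library (log2 fold change 1.03 ± 0.23, adjusted p = 0.015). Cox8a, another small accessory subunit, was at 354, 387 and 323 CPM in N and at 765, 695 and 645 CPM in KP, with no overlap (0.99 ± 0.24, adjusted p = 0.0194). The remaining called genes of this complex were Cox4i1, Cox5a, Cox5b, Cox6b1, Cox7a1, Cox7a2, Cox7b and Cox7c, between 0.54 and 0.90. Cox6c was at 0.43 ± 0.25 with an adjusted p of 0.258. Below zero were Cox7a2l, a factor that joins respiratory complexes into supercomplexes, at -0.28 ± 0.27 (adjusted p = 0.492), and Cox6b2 at -0.24 ± 0.67 (adjusted p = 0.842). The 3 Cox7a2l libraries of KP, at 450, 580 and 583 CPM, lay below those of N at 602, 637 and 725 CPM.

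Complex V held the gene with the largest difference of all 40. Atp5g1, which encodes subunit c of the membrane rotor, was at 90.4, 80.6 and 50.8 CPM in N vehicle polysomes and at 294, 235 and 216 CPM in KP. Every KP library lay far above every N library, and the log2 fold change was 1.75 ± 0.26, or 3.36-fold (adjusted p = 0.00344). Atp5d, the delta subunit of the central stalk, was at 293, 269 and 414 CPM in N and at 761, 820 and 681 CPM in KP, without overlap (1.21 ± 0.23, adjusted p = 0.0077). The peripheral-stalk gene Atp5o and the small membrane subunits Atp5j2, Atp5k and Atp5l lay between 0.91 and 1.10. Atp5h of the peripheral stalk and Atp5c1 of the central stalk were at 0.65 ± 0.24 and 0.52 ± 0.26. In the catalytic head Atp5b, the beta subunit, was at 671, 722 and 1172 CPM in N and 1081, 1505 and 1249 CPM in KP (0.58 ± 0.23, adjusted p = 0.108), and N replicate 3 overlapped the KP range. Atp5a1, the alpha subunit, was at 0.18 ± 0.21 (adjusted p = 0.591). Atp5s and Atp5sl were not called, at 0.36 ± 0.28 and 0.31 ± 0.31.

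**Figure D2:**
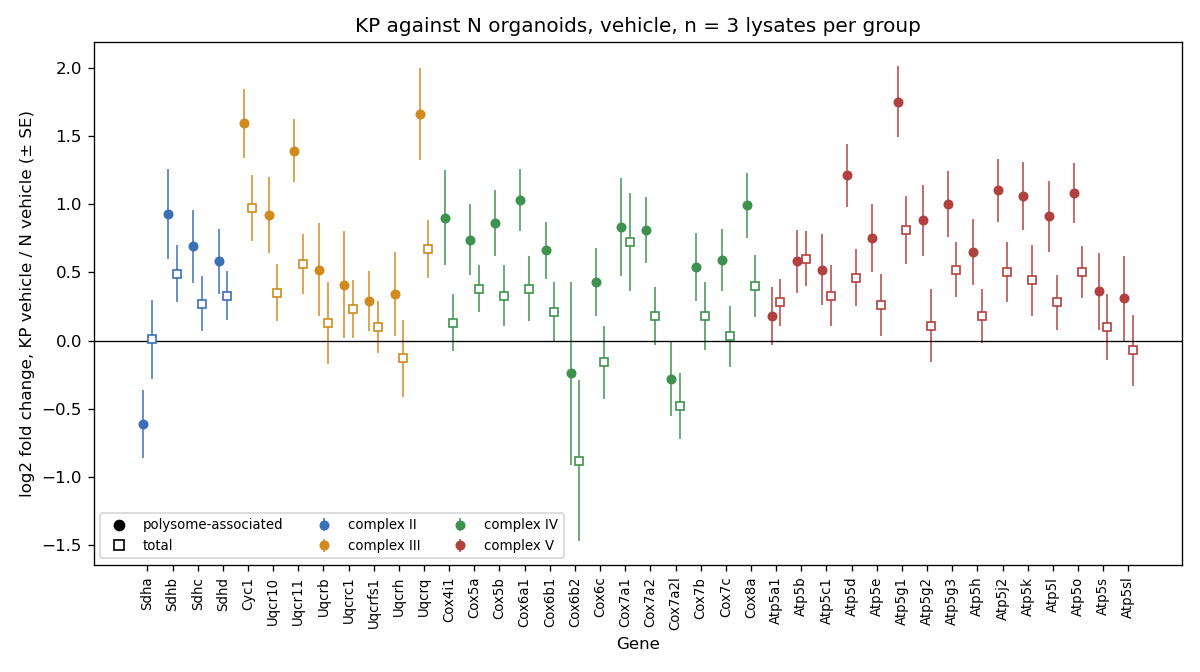
Log2 fold change of KP vehicle over N vehicle with its SE for each of the 40 genes, in polysome-associated mRNA (filled circles) and total mRNA (open squares), coloured by complex, with 3 lysates per group. Polysome values run from -0.61 (Sdha) to 1.75 (Atp5g1) and most lie above the total values of the same gene.

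In total mRNA the same direction was seen at a smaller size. Of the 40 genes 12 were called higher and 0 lower, and their median log2 fold change was 0.28. Of all genes 13.1% were called higher, and 1764 of the 11438 were called lower. With the replicate block, under the same limit, 23 were called higher and 2 lower, where 27.7% and 28.7% of all genes were. All 3 KP libraries were above all 3 N libraries for 19 of the 40 genes, against 15.9% of all genes. Cyc1 had the largest difference here, at 154, 151 and 130 CPM in N and 297, 307 and 245 CPM in KP, with no overlap and a log2 fold change of 0.97 ± 0.24 (adjusted p = 0.0309). Among genes above zero, Atp5g1 followed at 0.81 ± 0.25 (adjusted p = 0.0644), Cox7a1 at 0.72 ± 0.36 (adjusted p = 0.243), Uqcrq at 0.67 ± 0.21 (adjusted p = 0.0664) and Atp5b at 0.60 ± 0.20 (adjusted p = 0.0877). Below zero were Cox6b2 at -0.88 ± 0.59 (adjusted p = 0.395) and Cox7a2l at -0.48 ± 0.24 (adjusted p = 0.253). Cox6c, Uqcrh and Atp5sl were also below zero, at -0.16 ± 0.27, -0.13 ± 0.28 and -0.07 ± 0.26. Sdhb was at 93, 101 and 86.9 CPM in N and 130, 135 and 130 CPM in KP, a tight difference of 0.49 ± 0.21 (adjusted p = 0.167). Sdha was nearly level, at 0.01 ± 0.29. The count of called genes depended on single lysates: it was 4 without KP vehicle replicate 1, 5 without replicate 2 and 6 without replicate 3, and 7 without N vehicle replicate 1 and 4 without N vehicle replicate 3. It was 5 without both lysates of N replicate 3, KP replicate 2 or KP replicate 3. Over all such settings 6.42% to 17.7% of all genes were called higher. No gene was called lower, but 1 to 3 were when KP CR-31 replicate 1, N vehicle replicate 1, N vehicle replicate 2 or both lysates of N replicate 1 were left out.

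Whether polysome association changed beyond total mRNA was tested as the translational efficiency (TE), the interaction of fraction and organoid type with each lysate as its own block. No gene was called, among the 40 or among all genes (0% called in either direction). By unadjusted p under 0.05, 8 of the 40 genes passed, against 11.3% of all genes, and DESeq2 called 5 of the 40 higher, against 1.41% of all genes. Another measure of TE gave calls: a regression of polysome on total mRNA called 12 of the 40 higher and 1 lower, against 5.20% and 5.26% of all genes. With the replicate block, under the limit given for the polysome comparison, it called 29 higher and 2 lower, against 25.7% and 28.4%. Between libraries numbered 1, 2 and 3 the TE medians were 0.48, 0.82 and 0.09, and 38, 38 and 21 of the 40 genes were above zero. The fitted TE difference was above zero for 37 of the 40 genes, with a median of 0.44 and a largest value of 0.94 for Uqcrq (± 0.27, adjusted p = 0.433). Atp5g1 was at 0.90 ± 0.24, Uqcr11 at 0.74 ± 0.25, Atp5d at 0.72 ± 0.25 and Cyc1 at 0.59 ± 0.28. Sdha stood lowest at -0.66 ± 0.39. Replicate 3 of N bore on this test: 27 of the 40 genes were called higher when both of its lysates were left out, 12 without its vehicle lysate and 2 without its CR-31 lysate, against 20%, 8.36% and 1.05% of all genes. Its 2 lysates differed in the log2 ratio of polysome to total mRNA. Sdha was at 0.91 with vehicle and -1.32 with CR-31, Uqcrc1 at 1.06 and -0.60, and Uqcr10 at -0.89 and 0.84. Cyc1, at 0.54 and 0.39, and Cox4i1, at 0.31 and 0.47, kept their sign. Of the 40 genes 13 were above zero with vehicle and 26 with CR-31. In N replicate 2 Sdha was at 0.10 and 0.11. The libraries of N replicate 3 enter each comparison that uses N. The cause was not tested.

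The isoform families gave a further view, since their members encode alternative versions of 1 subunit. The 3 subunit c genes yield the same mature protein from different precursors. On the length-corrected RPKM scale of the authors, Atp5g2 was highest in N vehicle polysomes at 1127 ± 282 (SD, n = 3), then Atp5g3 at 440 ± 64.3 and Atp5g1 at 87.4 ± 29, and the same order held in KP vehicle at 1847 ± 169, 801 ± 206 and 260 ± 49.2. The least abundant gene of the family had the largest polysome difference between organoids, 1.75 for Atp5g1 against 1.00 ± 0.24 for Atp5g3 and 0.88 ± 0.26 for Atp5g2. In total mRNA Atp5g2 was at 0.11 ± 0.27. In the Cox7a family the muscle-type isoform Cox7a1 was at 4.94 ± 0.276 RPKM in N vehicle polysomes, far below the widespread isoform Cox7a2 at 189 ± 16.7 RPKM. Cox7a1 nevertheless changed by a similar amount, 0.83 ± 0.36 (adjusted p = 0.128) against 0.81 ± 0.24 (adjusted p = 0.044). Cox6b2, known as a testis isoform, was at 18.7 ± 10.8 RPKM against 672 ± 52.8 RPKM for Cox6b1. Its libraries spread widely, from 3.52 to 20.2 CPM in N polysomes, with N replicate 3 highest in both treatments. Without N vehicle replicate 3 its sign turned, to 0.44. Cox6b1 itself changed by 0.66 ± 0.21 (adjusted p = 0.0539).

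Because many of these genes moved together, their promoters were read from RefSeq (GRCm38.p6), in windows from 250 bases before to 50 after each start. Of the 40 genes 33 had an entry, and Sdhc, Cyc1, Uqcrb, Uqcrq, Cox4i1, Cox6c and Atp5a1 had none. The letters GCGCATGCG, the core of the NRF1 motif, were present on either strand in 18.2% of the 33 against 4.05% of the 9187 tested genes with a promoter. The letters CCGGAAG, the core of the ETS motif bound by GABP, were present in 33.3% against 19.3%. Over all 27025 genes of the promoter table the shares were 1.95% and 9.93%. NRF1 and GABP are transcription factors known for driving nuclear respiratory genes, and a match of letters is a description, not a site in use. The windows below show some of the matches in genes named above, among them Uqcrc1 and Uqcrh, which were not called, on the strand of the gene, with the matched letters in capitals (CTTCCGG and CGCATGCGC are the same motifs read on the other strand). Not shown are the matches in Sdhd, Cox6b1, Atp5e, Atp5h and Atp5l. A further match of the GABP letters in Cox8a and the match of the NRF1 letters in Atp5k are also not shown.
Sdhb, chr4:140961267-140961293, plus strand: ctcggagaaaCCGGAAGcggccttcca
Uqcr11, chr10:80406808-80406836, minus strand: atcgccttcaCGCATGCGCtatacgtctg
Uqcr11, chr10:80406871-80406897, minus strand: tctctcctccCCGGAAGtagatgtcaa
Uqcrc1, chr9:108936668-108936696, plus strand: actccgctctGCGCATGCGcagcgcggct
Uqcrh, chr4:116075064-116075090, minus strand: gtatgccgcaCTTCCGGccaggtcgcc
Cox6a1, chr5:115349102-115349130, minus strand: caggaacgggGCGCATGCGcgctctcgct
Cox6a1, chr5:115348958-115348984, minus strand: cccatttccgCTTCCGGcgcgccggtg
Cox8a, chr19:7217605-7217631, minus strand: ttccgaaataCTTCCGGctcgggcgtc
Atp5g2, chr15:102671071-102671099, minus strand: ggctccggccGCGCATGCGcagagccttc
Atp5k, chr5:108434371-108434397, minus strand: ctcagttgagCTTCCGGcgcgaaggtc

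Neither set of letters was in the windows of Atp5g1 or Atp5d, both called higher in KP polysomes. Sdha, which was lower in KP polysomes, also held neither in its window.

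Short coding sequences set these genes apart, and length moved with the polysome comparison. The coding length of the 40 genes, from GENCODE vM21, had a median of 405 bases and ranged from 156 (Atp5e) to 1992 (Sdha), while the median of the 11394 tested genes with a value was 1383 bases, and 5.34% of the genes tested were as short as the members' median or shorter. Across all these genes, Spearman's rho between coding length and the KP against N log2 fold change was -0.25 in polysomes, 0.08 in total mRNA and -0.55 in TE. Among the 40 genes it was -0.29, 0.00 and -0.39. The genes that share a length also share libraries, so these are descriptions. The 1427 other genes between 248 and 609 bases, the quartiles of the members, had a median polysome log2 fold change of 0.29, against 0.78 for the 20 members of that range. In total mRNA their median was -0.07 against 0.24, and in TE 0.33 against 0.45. The part of coding length in the result was not tested.

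**Figure D3:**
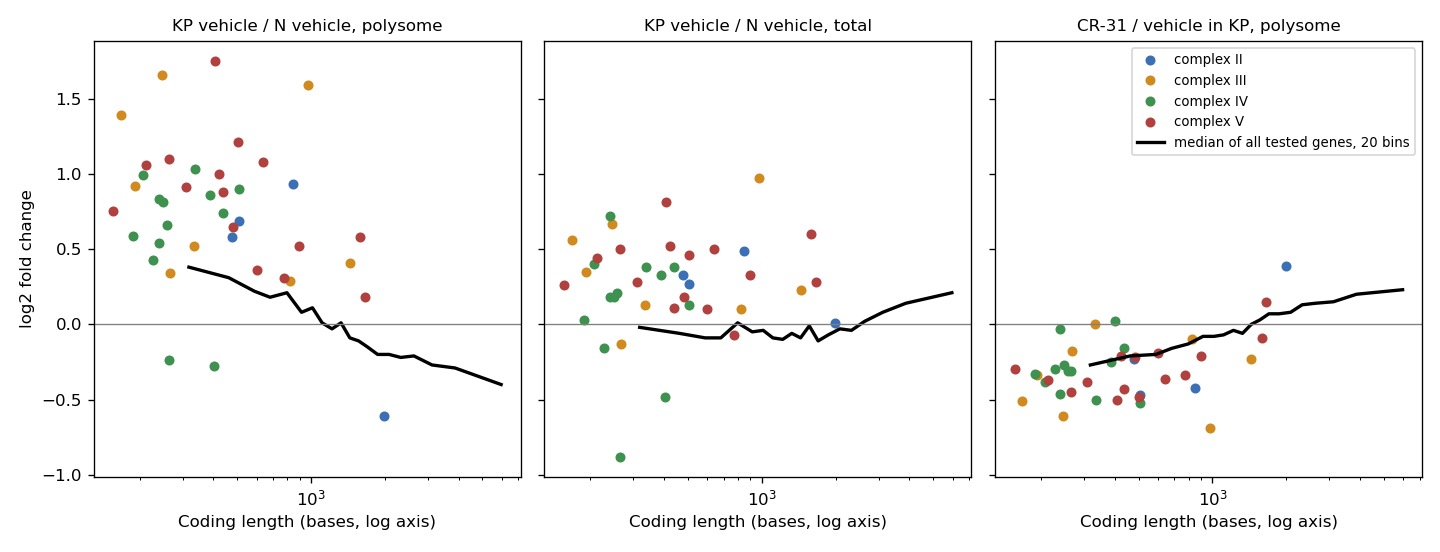
Log2 fold change of each of the 40 genes against coding length on a log axis, coloured by complex, with the black line giving the median of all tested genes in 20 bins of equal size. In the polysome comparison of KP with N the line falls from 0.38 in the bin of the shortest genes to -0.40 in that of the longest, with most members above it. For CR-31 in KP it rises from -0.27 to 0.23.

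With CR-31, most subunit mRNAs had somewhat lower levels on KP polysomes than with vehicle, but the differences did not reach the threshold. This comparison shares its KP vehicle libraries with the comparison of KP and N above. The log2 fold change was below zero for 36 of the 40 genes, with a median of -0.31 (0.808-fold) against -0.02 for all genes. No gene was called by edgeR or DESeq2, among the 40 or among all genes (0% called). At an unadjusted p under 0.05, 2 of the 40 passed, against 3.55% of all genes. Vehicle and CR-31 lysates of the same number deviated together within each organoid type. When this number was added as a block, 8 of the 40 genes were called lower and 0 higher. Of all genes 11.1% were called lower, and 949 of the 11438 were called higher. The call of these 8 was not kept under every setting: with the block, 0 were called lower without both lysates of KP replicate 3, and 29 without both of N replicate 3, against 29.5% of all genes called lower in the latter. The 8 were Sdhc, Cyc1, Uqcrq, Cox4i1, Cox6a1, Atp5d, Atp5j2 and Atp5sl. For 14 of the 40 genes all CR-31 libraries lay below all vehicle libraries, against 10.5% of all genes, and for 0 genes above.

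Cyc1 had the lowest value. Its KP polysome libraries were at 518, 542 and 365 CPM with vehicle and at 297, 297 and 291 CPM with CR-31, so the treated libraries were nearly equal and all lay below the untreated ones. The log2 fold change was -0.69 ± 0.25 (adjusted p = 1), and -0.67 ± 0.16 with the replicate block (adjusted p = 0.192). Atp5d went from 761, 820 and 681 CPM to 509, 522 and 587 CPM, also without overlap, at -0.48 ± 0.23 (adjusted p = 1), or -0.48 ± 0.15 with the block (adjusted p = 0.192). Cox6a1 went from 533, 667 and 465 CPM to 354, 392 and 432 CPM, at -0.49 ± 0.18 with the block (adjusted p = 0.204). In complex II, Sdhc went from 351, 348 and 302 CPM to 241, 222 and 261 CPM, at -0.47 ± 0.16 with the block (adjusted p = 0.196). Sdhb was at 184, 203 and 109 CPM with vehicle and at 116, 123 and 131 CPM with CR-31, so its treated libraries overlapped vehicle replicate 3, and its value was -0.38 ± 0.21 with the block (adjusted p = 0.334). Sdha went the other way, from 77.4, 86.2 and 110 CPM to 126, 109 and 124 CPM, at 0.39 ± 0.25 (adjusted p = 1).

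The lower levels were mostly in replicates 1 and 2. The median of the 40 paired differences was -0.45 in replicate 1, -0.43 in replicate 2 and -0.00 in replicate 3, and 6, 3 and 19 of the 40 genes were higher with CR-31. In all 3 pairs 19 of the 40 genes were lower, against 30.6% of all genes, among them Cyc1, Atp5d and Sdhc. Among libraries of the code that covered 2 vehicle lysates and 1 CR-31 lysate the median was -0.35, and among those of the code that covered 1 and 2 it was -0.05. In total mRNA of KP organoids the replicates went opposite ways. The median of the paired differences was 0.39, -0.17 and -0.02 in replicates 1, 2 and 3, and 36, 1 and 16 of the 40 genes were higher with CR-31. The median of the fitted values was 0.07, and none of the 40 was called by edgeR or DESeq2 (edgeR called 0% of all genes; 0 of the 40 passed at an unadjusted p under 0.05, against 0.953% of all genes). In TE the median was -0.29 and 34 of the 40 genes were below zero. The medians of the paired TE differences were -0.81, -0.28 and 0.02 in replicates 1, 2 and 3. In these, 6, 7 and 22 of the 40 genes were higher with CR-31. None was called by edgeR or DESeq2 (edgeR called 0% of all genes), and 4 had an unadjusted p under 0.05, against 5.48% of all genes. The regression on total mRNA with the replicate block called 6 lower, against 8.67% of all genes, and the block without both lysates of N replicate 3 gave 16 lower and 2 higher, against 22% and 24.1%. Among other genes of similar coding length, the 1427 genes between 248 and 609 bases had a median of -0.22 on KP polysomes, against -0.29 for the 20 members of that range, and in TE -0.15 against -0.30. Spearman's rho between coding length and the CR-31 effect in KP was 0.41 on polysomes and 0.32 in TE across all genes, and 0.25 and 0.05 among the 40. The part of coding length in this result was not tested.

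**Figure D4:**
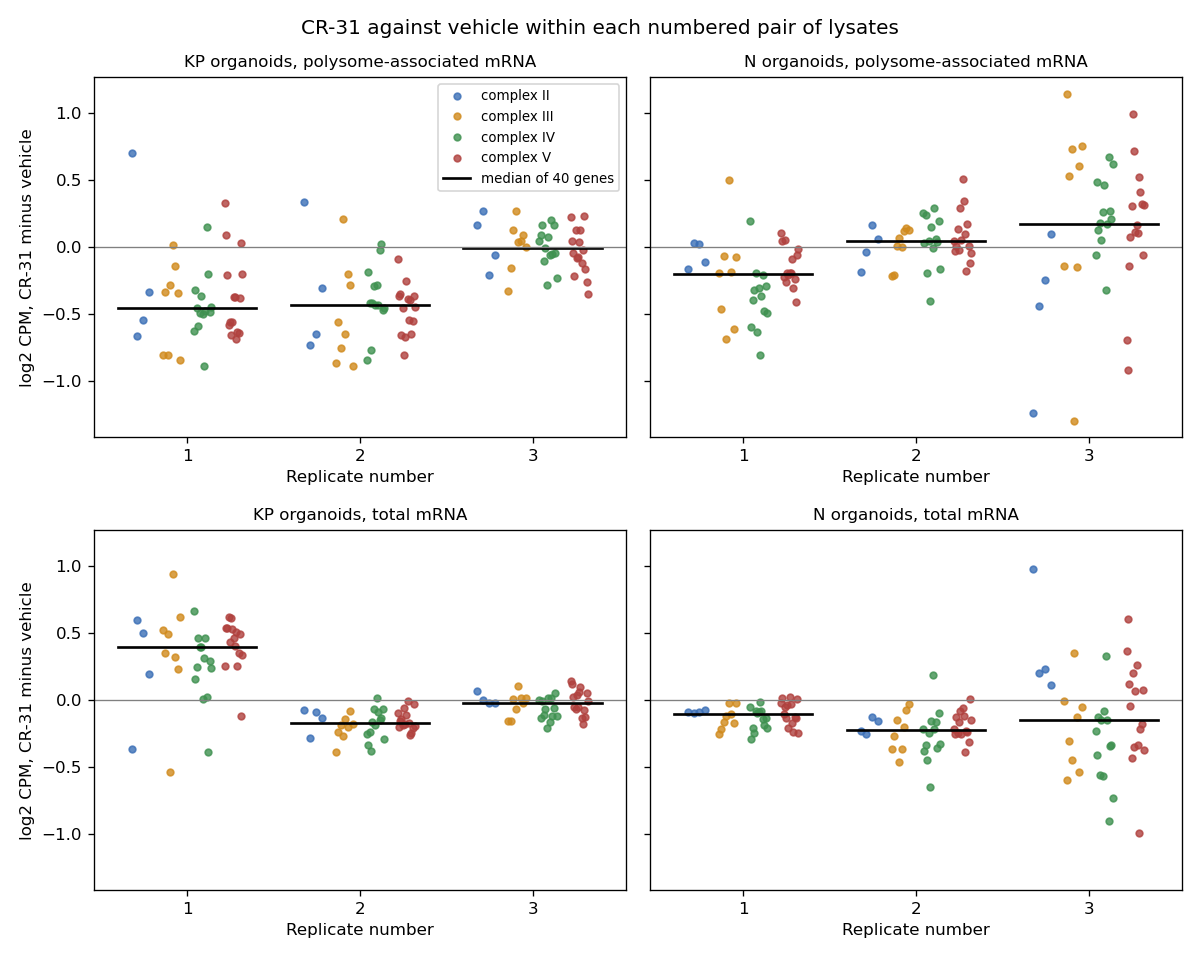
Log2 CPM with CR-31 minus log2 CPM with vehicle for each of the 40 genes (points, coloured by complex) within each numbered pair of lysates, in KP and N organoids and in both fractions, with black lines for medians. In KP polysomes the medians are -0.45, -0.43 and -0.00, and in KP total mRNA they are 0.39, -0.17 and -0.02.

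In N organoids the same treatment left polysome levels near those of vehicle. The median was 0.04, with -0.20, 0.04 and 0.18 in replicates 1, 2 and 3, and without N CR-31 replicate 3 it was -0.20. No gene was called by edgeR or DESeq2 (0% of all genes), and 0 of the 40 passed an unadjusted p under 0.05, against 0.420% of all genes. Cyc1 was at 152, 125 and 196 CPM with vehicle and 133, 107 and 178 CPM with CR-31, a difference of -0.18 ± 0.25. Sdha was at 108, 143 and 167 CPM with vehicle and 96.2, 126 and 71 CPM with CR-31, lower in each numbered pair though the groups overlapped, at -0.51 ± 0.25 (adjusted p = 1), or -0.52 ± 0.22 with the replicate block (edgeR unadjusted p = 0.0429, adjusted p = 0.95). Total mRNA was slightly lower, with a median of -0.18 and 31 of the 40 genes below zero. All 3 numbered pairs had the same sign for 28 of the 40 genes, 27 of them lower, against 43.7% of all genes in either direction. None was called by edgeR or DESeq2 (edgeR called 0% of all genes; 0 of the 40 passed at an unadjusted p under 0.05, against 2.60% of all genes). Under the replicate block 7 of the 40 passed at an unadjusted p under 0.05, against 9.23% of all genes, and none was called. The median ranged from -0.33 without N vehicle replicate 1 to -0.06 without N CR-31 replicate 1. The TE median was 0.20, with 0 genes called by edgeR or DESeq2 (edgeR, 0% of all genes) and 1 of the 40 at an unadjusted p under 0.05, against 2.87% of all genes.

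The difference between the CR-31 effects of KP and N was tested directly. On polysomes it had a median of -0.35 and was below zero for 36 of the 40 genes, but no gene was called by edgeR or DESeq2 (0% of all genes), and 2 of the 40 had an unadjusted p under 0.05, against 2.26% of all genes. These 2 went opposite ways, Sdha at 0.90 ± 0.35 (unadjusted p = 0.0245 and adjusted p = 0.999 by edgeR) and Atp5g1 at -0.83 ± 0.36 (unadjusted p = 0.0381, adjusted p = 0.999). Under the replicate block 5 did, against 14.2%. Without N CR-31 replicate 3 the median was -0.08. In total mRNA the median was 0.25 (0 called by edgeR or DESeq2, with 0% of all genes called by edgeR; 0 of the 40 at an unadjusted p under 0.05, against 0.131% of all genes). In TE it was -0.45, with 0 called by edgeR (0% of all genes), 5 at an unadjusted p under 0.05 against 10.7% of all genes, and 6 called lower and 1 higher by DESeq2 (2.07% and 0.463% of all genes). Without N CR-31 replicate 2, edgeR called 5 lower and 1 higher in TE, against 6.85% and 9.77% of all genes. The 1427 other genes between 248 and 609 bases of coding length had a median difference of -0.28 on polysomes, against -0.34 for the 20 members of that range. In TE it was -0.32 against -0.45. The part of coding length in this difference was not tested.

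With CR-31 in both organoid types, a part of the subunit mRNAs was called higher in KP than in N in each fraction. These libraries are not those of the vehicle comparisons, but vehicle and CR-31 libraries of one number deviated together, so the comparisons are not independent. On polysomes 17 of the 40 genes were called higher and 0 lower, with a median of 0.47. Of all genes 11.2% were called higher, and 1579 of the 11438 were called lower. At an adjusted p under 0.05 only Cyc1 was called higher, a share like the 2.45% of all genes, and 3 genes lay below zero. With the replicate block, under the limit given for the vehicle comparison, 31 were called higher and 1 lower, where 28.7% and 29.5% of all genes were, and 17 were higher at an adjusted p under 0.05, where 16.3% of all genes were. In total mRNA 27 were called higher and 0 lower, with a median of 0.52. Of all genes 18.9% were called higher, and 2406 of the 11438 were called lower. With the block 33 of the 40 were called higher and 1 lower (31.7% and 33.4% of all genes). Cyc1 led both, at 1.08 ± 0.25 on polysomes (adjusted p = 0.0286) and 1.23 ± 0.24 in total mRNA (adjusted p = 0.0128). Its total libraries were at 130, 118 and 130 CPM in N CR-31 and at 427, 234 and 220 CPM in KP CR-31, and KP replicate 1 was far above the others. The polysome count was 6, 5, 9 and 6 without KP CR-31 replicate 1, KP CR-31 replicate 3, N CR-31 replicate 1 and N CR-31 replicate 2. Leaving out both lysates of a number gave 10, 6 and 30 for N replicates 1, 2 and 3, and 3 and 4 for KP replicates 1 and 3. Over these settings 3.3% to 16% of all genes were called higher on polysomes and 7.22% to 22.5% in total mRNA. The total count was 15 without KP CR-31 replicate 1 and 14 without both lysates of KP replicate 1.

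By complex, the summed level on polysomes shows the size of these shifts. Complex V genes together made up 3952, 4317 and 5386 CPM in N vehicle and 8193, 8265 and 7066 CPM in KP vehicle. With CR-31 they made up 3680, 4588 and 5337 CPM in N and 6522, 6039 and 7109 CPM in KP. The KP vehicle range thus stood above both N groups, and the KP CR-31 range reached into it through replicate 3. For complex III the sums were 1332, 1318 and 1550 CPM in N vehicle, 2852, 3127 and 2257 CPM in KP vehicle and 1990, 1998 and 2227 CPM in KP CR-31. All 3 KP CR-31 sums lay above N vehicle and below KP vehicle, and N CR-31, at 1155, 1343 and 1821 CPM, lay below them. The means of complex IV had the same order, with 3350 ± 405 CPM in N vehicle, 5216 ± 677 CPM in KP vehicle and 4192 ± 187 CPM in KP CR-31 (SD, n = 3), but N CR-31 replicate 3, at 4687 CPM, was above every KP CR-31 sum and above KP vehicle replicate 3 at 4446 CPM. For complex II the means were 605 ± 176, 848 ± 84.3 and 703 ± 59.8 CPM, and the groups overlapped, with N vehicle replicate 3, at 809 CPM, above every KP CR-31 sum and KP vehicle replicate 3 at 758 CPM. The sums of complex II in N CR-31 were 490, 503 and 645 CPM.

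The 2 fractions of the same lysates were also compared within each group. In N vehicle the subunit mRNAs were lower on polysomes than in total mRNA for 36 of the 40 genes, with a median log2 ratio of -0.25 against -0.05 for all genes, and 3 were called lower where 6.36% of all genes were. In KP vehicle the ratio was above zero for 30 of the 40, with a median of 0.19 against -0.02, and 9 were called higher where 14.2% of all genes were. Those with the largest ratios in KP vehicle were Atp5j2 at 0.69 ± 0.18 (adjusted p = 0.0693), Uqcr11 at 0.67 ± 0.18 (adjusted p = 0.0692) and Cyc1 at 0.64 ± 0.20 (adjusted p = 0.0951). With CR-31 the medians were -0.12 in N, where 1 gene was called higher and 3 lower (7.81% and 10.7% of all genes), and -0.09 in KP, where 2 were called lower (6.50% of all genes). With the replicate block the calls in the CR-31 groups fell to 0, where 4.98% of all genes were called higher and 4.23% lower in N and 3.97% lower in KP. In KP vehicle 6 were then called higher, against 11.1% of all genes, and in N vehicle 3 were called lower, against 3.35%. These counts moved with single lysates. For N vehicle the count lower was 0 without N vehicle replicate 2 or both lysates of N replicate 2, 1 without those of KP replicate 2, 5 without N vehicle replicate 1 or both lysates of KP replicate 1, 7 without KP CR-31 replicate 1 or N CR-31 replicate 3, 9 without N vehicle replicate 3 and 19 without both lysates of N replicate 3, where 20.7% of all genes were called lower. For KP vehicle the count higher was 0 without KP vehicle replicate 1 or 2, or without both lysates of KP replicate 2 or 3. It was 5 without KP vehicle replicate 3 or both lysates of N replicate 1 or KP replicate 1, and 15 without both of N replicate 3, where 23.1% of all genes were called higher. In the CR-31 groups the count lower moved in 16 of 18 such settings for N and in 15 of 18 for KP, between 0 and 7, while 1.3% to 15.3% of all genes were called lower in N and 0.175% to 21.6% in KP.

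Genes that assemble or accompany these complexes were read from a list of their own. Of 29 tested assembly factors and partners, 13 were called higher and 0 lower on KP vehicle polysomes (20.9% and 22.2% of all genes), with a median log2 fold change of 0.45. The largest was Cmc2, an assembly factor of complex IV, at 1.56 ± 0.36 (adjusted p = 0.0163), which also rose in total mRNA (1.14 ± 0.32, adjusted p = 0.0462). Uqcc2, needed to build complex III, was at 1.09 ± 0.28 (adjusted p = 0.0255), Atpaf2, a chaperone of the ATP synthase head, at 0.73 ± 0.16 (adjusted p = 0.0135), and Cycs, cytochrome c itself, at 0.72 ± 0.28 (adjusted p = 0.0962). In total mRNA 3 of the 29 were called higher and 0 lower, where 13.1% and 15.4% of all genes were. On KP polysomes CR-31 gave a median of -0.24 with 0 called, and with the replicate block 5 were called lower, where 11.1% of all genes were. Of 9 tested regulators of respiratory gene expression, 2 were called higher and 1 lower on KP vehicle polysomes, close to the shares of all genes (20.9% and 22.2%). Tfam, which packages and transcribes mitochondrial DNA, was at 0.65 ± 0.21 (adjusted p = 0.0567), Nrf1 at 0.42 ± 0.24 (adjusted p = 0.246), and Tfb2m, a mitochondrial transcription factor, at -0.43 ± 0.22 (adjusted p = 0.206). In total mRNA Nrf1 was at 0.48 ± 0.19 (adjusted p = 0.142), and the coactivator gene Ppargc1a was at 0.07 ± 1.02.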

How the data were processed

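The deposited table holds a read count and an RPKM value for each gene in each of 24 libraries. Per the labels and the study's methods, the authors aligned reads with HISAT2, discarded multi-mapping reads and made the counts and RPKM values per RefSeq gene; the build they name is human (hg38), although the symbols are mouse, so no coordinates were taken from the table. Counts were used as deposited. RPKM values of the authors were used only to compare levels between genes. Entries with several symbols (1042 of 19895) and genes with a 0 in any library were removed, by filters like those of the study. This left 11438 genes, which is not the number given in the study's methods.

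edgeR 4.0.16 (R 4.3.3, TMM scaling, quasi-likelihood test) was fitted to the 4 groups of each fraction, and to all 24 libraries with a lysate block for TE and for polysome against total. P-values were adjusted by Benjamini-Hochberg over 11438 genes. CPM used TMM scaling within a fraction. The named genes were those of lowest p in each complex, those against the majority, isoform families and Sdhb, and other genes, among them Uqcrq, Uqcr10, Atp5b, Atp5j2 and Cox4i1, were named after their values were seen, as were the regulators and assembly factors given. The coding-length ranges were also chosen after seeing the data. The members and lists were chosen with earlier results of these data known. Vehicle and CR-31 libraries of the same number correlated in their deviations from the group means in every pair within an organoid type (r = 0.45 to 0.89), so the replicate block was applied there. Between N and KP the same check gave -0.17 to 0.28, so those numbers do not pair. The fits were also run on simulated counts with known changes, and the outcome is not given here. Alternatives were DESeq2 1.42.0, other scalings and filters, the code that opens a library's name (read as a run or lane), the block, a regression of polysome on total mRNA, and leaving out lysates. Promoters came from RefSeq (GRCm38.p6) and coding lengths from GENCODE vM21. A further engineered allele of the KP mice is not reported here.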

Additional observations from a re-analysis of the deposited data

How the results depend on the processing

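No library code, read as a run or lane, held both organoid types, and 3 lysates per group limit the precision. The depth did not limit these genes, whose lowest count was 70. Over all alternatives, 151 counts and medians moved further, while 1283 values stayed within 1.5 times the reported count or within the replicate spread of the reported median, and 760 values of single genes kept their direction and their side of the threshold. For single genes 57 values were no longer past the threshold, 28 were newly so and 19 turned sign. The cause was not tested for any change given here.

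In the next sentences the share of all genes called in the same direction and setting stands in brackets. With the replicate block, KP against N in polysomes gave 2 genes lower (34.8%), also without both lysates of N replicate 3 (40.8%) or of KP replicate 3 (33.6%). The genes it added higher were Uqcrfs1, Uqcrc1, Uqcrb, Cox6c, Atp5s and Atp5sl, and it added Cox7a2l lower. In total mRNA it gave 23 higher (27.7%) and 2 lower (28.7%), 25 higher without N replicate 3 (26.4%) and 2 lower without KP replicate 3 (24.5%). The block does not pair N with KP, and it removes replicate spread from their error as well. For KP CR-31 against N CR-31 in polysomes it gave 31 higher (28.7%) and 1 lower (29.5%), 37 higher without N replicate 3 (35.9%) and 1 lower without KP replicate 3 (26%), and in total mRNA 1 lower (33.4%), as without KP replicate 3 (31.2%). For CR-31 in KP polysomes the replicate block gave 8 lower (11.1%), and without N replicate 3 it gave 29 lower (29.5%) and 1 higher (25.4%). For CR-31 in N polysomes the block without N replicate 3 gave 3 lower (5.37%). For the difference of the CR-31 effects in polysomes it gave 1 higher (11.1%) and 9 lower (15.9%). In TE of KP against N it gave 28 higher (23.7%), in TE of CR-31 in KP 2 higher (24.1%) and 16 lower (22%), and without KP replicate 3 the TE difference had a median of -0.61. The settings that combine the block with a left-out replicate were chosen after seeing the data.

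DESeq2 gave 1 lower (16.6%) in total mRNA for KP against N, 5 higher (1.41%) in TE, 1 higher (0.463%) and 6 lower (2.07%) for the TE difference, and 6 (8.39%) and 4 (10.4%) lower for polysome against total in N vehicle and KP CR-31. The regression on total mRNA gave 12 higher (5.2%) and 1 lower (5.26%) for TE of KP against N. With the replicate block, under the limit given for it above, it gave 29 higher (25.7%) and 2 lower (28.4%) with a median of 0.90. With that block it gave 6 lower (8.67%) for TE of CR-31 in KP, a TE median of -0.11 for CR-31 in N and of -0.13 for the TE difference. The library code as a term cannot adjust KP against N, since none was shared, and its 2 lower (16.8%) there in total mRNA say nothing of stability. It gave a median of -0.10 for the polysome difference and of -0.26 for CR-31 in N total mRNA. Upper-quartile scaling gave 1 lower (8.68%) and no low-count filter gave 0 higher (4.54%) and 1 lower (4.95%) for polysome against total in N CR-31, and no filter gave 0 lower (2.76%) in KP CR-31. Upper-quartile scaling moved the median of all genes in KP against N polysomes from -0.03 to -0.13, with 37 of the 40 genes above zero under both.

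Leaving out 1 lysate, or both of a number, gave these ranges, with those of all genes in brackets. Counts higher ran from 4 to 15 (6.42% to 17.7%) in total mRNA of KP against N, where those lower ran from 0 to 3 (7.66% to 19.9%), and from 0 to 27 (0% to 20%) in TE. For KP CR-31 against N CR-31 they ran from 3 to 30 (3.3% to 16%) in polysomes, with 0 to 1 lower (4.74% to 18.7%), and 14 to 29 (7.22% to 22.5%) in total mRNA. The count lower for KP against N polysomes was 0 to 1 (11.5% to 26.3%). Medians ran from -0.20 to 0.20 for CR-31 in N polysomes and -0.33 to -0.06 in N total mRNA. For the difference of the CR-31 effects they ran from -0.53 to -0.08 in polysomes and -0.74 to -0.27 in TE, where 0 to 1 genes were called higher (0% to 9.77%) and 0 to 5 lower (0% to 6.85%). For polysome against total the counts were 0 to 19 lower (0.114% to 20.7%) in N vehicle, 0 to 2 higher (2.01% to 15.2%) and 0 to 7 lower (1.3% to 15.3%) in N CR-31, 0 to 15 higher (0% to 23.1%) and 0 to 4 lower (0% to 24.7%) in KP vehicle, and 0 to 7 lower (0.175% to 21.6%) in KP CR-31.

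Near zero, signs turned. Cox6b2 in polysomes was 0.35 and 0.13 with the block without N or KP replicate 3, and 0.44 to 0.45 without N vehicle replicate 3 or both lysates, in a range that started at -0.68. Sdha in total mRNA was -0.01 with upper-quartile scaling and with the block, -0.13 and -0.05 with the block without N or KP replicate 3, and -0.12 to 0.18 with lysates left out. Atp5g2 in total mRNA was -0.02 with the code as a term, under the same limit, and -0.11 to 0.28 with lysates left out, at -0.10 without N vehicle replicate 1.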
